A study of Homo sapiens with 3 samples.

Results

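The enzymes and binding proteins that build, store and burn fatty acids were examined in Hep3B, an established human liver cancer line. The set holds 42 genes of 19862 in the expression table, named by their place in the pathway and matched to the table by Ensembl identifier. They were chosen with earlier results of these data known. All 42 genes were found. Levels are in FPKM, sequenced fragments per kilobase of transcript scaled to library size, so levels of different genes can be set side by side. A gene counted as measured when its FPKM averaged at least 1 across the 3 libraries, which held for 41 of the 42 genes and for 10974 genes in all. The exception was CD36, a fatty acid transporter of the plasma membrane.

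Liver cells make fatty acids in the cytosol from acetyl-CoA, lengthen and desaturate them at the endoplasmic reticulum, and either join them to glycerol for storage in lipid droplets or carry them into mitochondria as carnitine esters for beta-oxidation. Peroxisomes shorten very long and branched chains. The synthetic genes are classical targets of SREBP-1c, ChREBP and the liver X receptors, and many oxidation and droplet genes are classical targets of the PPAR receptors.

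RNA was sequenced from 1 library in each of 3 groups. The control, titled NT-Empty, carries the label Fugene treatment, after the transfection reagent. The HKR3 group was transfected with pcDNA3.1-HKR3, a plasmid that expresses HKR3, the telomere-binding zinc finger protein now named ZBTB48, and the siTERT group with a small interfering RNA against TERT, the catalytic subunit of telomerase. All cells grew in medium with fetal bovine serum, which supplies lipids. Whether the control received an empty plasmid, a control RNA or both is a point not given in the sources used here, and if it did not, an effect of HKR3 and an effect of plasmid transfection cannot be told apart. With 1 library a group there is no spread between replicates and no test. A difference below means log2(FPKM + 1) in the treated library minus that in the control. The added 1 FPKM understates the change of weakly expressed genes. Counts past 2-fold or 1.5-fold are made on this scale, where 2-fold means a difference of at least 1.

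ZBTB48 measured 4.91, 2842 and 4.89 FPKM and TERT 4.69, 4.25 and 5.37 FPKM in the order control, HKR3 and siTERT. The library labelled siTERT thus had no lower TERT level than the control, and its values belong to its label. All 10 hepatocyte and hepatoma markers were measured, and 0 of 6 stromal markers. Of 5 endothelial markers 4 were found in the table, all listed at 0. Of 6 immune markers 3 were measured, while PTPRC and CD3E were listed at 0. In the order control, HKR3 and siTERT, LYZ measured 392.5, 210.3 and 391.9 FPKM, CD14 6.20, 3.13 and 4.82 FPKM and CD68 32.7, 29.4 and 44.1 FPKM, and the median difference of these 3 with HKR3 was -0.80. The hepatocyte and hepatoma markers summed to 11960.3, 8473 and 11819 FPKM in the same order. With HKR3, 8 of 10 were below the control, against 51.4% of all genes. The part of these markers in the results below was not tested, and in RNA from whole cultures fewer cells of a kind and less RNA per cell cannot be told apart. The library sizes, estimated from the FPKM that a single fragment is worth in weakly expressed genes, were 1.02e+07, 1.13e+07 and 1.08e+07 fragments. Intervals on ratios given below use these estimates and cover counting error only, not the variation between cultures.

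With HKR3, 3 of the 41 measured genes were at least 2-fold higher than in the control and 0 were at least 2-fold lower. Among all genes these shares were 5.52% and 2.52%, so the counts are near the background. The 3 genes were PLIN2, ACSL1 and LPIN1, which act in droplet coating, fatty acid activation and the making of diacylglycerol. At least 1.5-fold lower were 6 genes, against 12.7% of all genes, and at least 1.5-fold higher were PLIN2, ACSL1 and LPIN1 alone, against 15.3%. Without the added 1 FPKM, the ratios of CPT1A at 1.60 and ACSL5 at 1.53 also reached 1.5-fold. ETFDH, at 64.6% of the control, was then also 1.5-fold lower, and with 0.1 FPKM added the lower count was 7. Below the control by any amount were 27 of 41 genes, against 51.4% of all genes. The median difference of the 41 genes was -0.14 beside -0.021 for all genes.

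Scaling each library to the same FPKM sum, as in TPM, raised the median of all genes with HKR3 by 0.14, and the higher share of all genes past 2-fold went from 68.6% to 83.7%. After that scaling PLIN2, ACSL1 and LPIN1 were still past 2-fold, while the count at least 1.5-fold lower went from 6 to 1. The share of all genes at least 1.5-fold lower went from 12.7% to 7.79% with that scaling, and the share below the control from 51.4% to 41.1%. Fewer of the 41 genes were then below the control as well. It was 4 of 6 genes that make palmitate, 1 of 7 of elongation and desaturation and 4 of 6 of glycerolipid synthesis. Of mitochondrial oxidation it was 8 of 12, and of the acyl-CoA synthetases and the droplet genes 0 of 4 each. FABP1 stayed below the control and EHHADH above it.

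**Figure D1:**
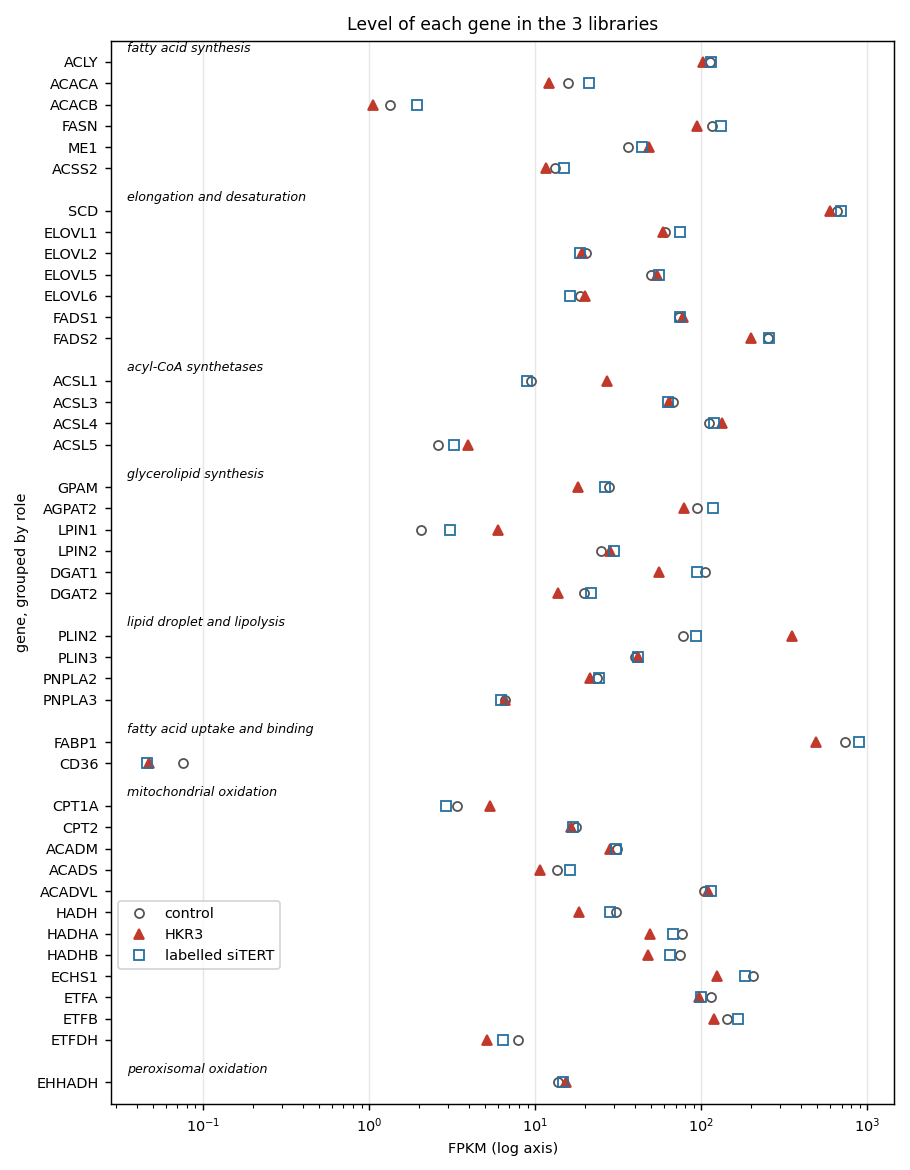
The FPKM of each of the 42 genes on a log axis, grouped by role, with 1 point per library (open circle for the control, filled triangle for HKR3, open square for the library labelled siTERT). The HKR3 points of PLIN2, ACSL1 and LPIN1 lie to the right of both others, at 349.8, 27.01 and 5.95 FPKM, and CD36 lies far to the left of every other gene.

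The largest difference was that of PLIN2, perilipin 2, the protein that coats lipid droplets in hepatocytes. Its level was 77.8 FPKM in the control, against 349.8 FPKM with HKR3 and 93.5 FPKM in the library labelled siTERT. HKR3 therefore stood at 4.498 times the control, with a 95% counting interval of 4.26 to 4.75, and its difference of 2.16 exceeded that of 99.4% of genes. Against the library labelled siTERT, a comparison that does not use the control, the difference was 1.89.

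The other droplet genes of the set did not share the pattern of PLIN2. PLIN3, another droplet coat protein, measured 39.9, 41.8 and 41.4 FPKM in the order control, HKR3 and siTERT. PNPLA2, adipose triglyceride lipase, measured 23.6, 21.4 and 24.3 FPKM, and PNPLA3, a lipase and acyltransferase found on hepatocyte droplets, 6.59, 6.54 and 6.201 FPKM. Their differences with HKR3 were 0.064, -0.14 and -0.011, and the signs of the last pair turned after scaling to the same sum, to 0.014 and 0.13.

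ACSL1, an acyl-CoA synthetase that activates long-chain fatty acids for storage or oxidation, stood at 9.43 FPKM in the control, against 27.01 FPKM with HKR3 and 8.93 FPKM in the library labelled siTERT. The ratio of HKR3 to control was 2.86, with a counting interval of 2.39 to 3.46, and the difference was 1.42 from the control and 1.496 from the library labelled siTERT. HKR3 alone was high, and the library labelled siTERT differed from the control by -0.071.

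The other synthetases differed less. ACSL5 measured 2.59, 3.96 and 3.22 FPKM in the order control, HKR3 and siTERT. ACSL4, which prefers arachidonate, measured 111, 133 and 119.9 FPKM, and ACSL3, the form found on droplets, 67.1, 64.02 and 62.7 FPKM. Their differences with HKR3 were 0.47, 0.25 and -0.068, the last of which turned to 0.086 after scaling to the same sum. From highest to lowest the order of levels was ACSL4, ACSL3, ACSL1 and ACSL5 in all 3 libraries.

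LPIN1, a phosphatidate phosphatase that makes diacylglycerol and also acts with PPAR alpha in the nucleus, stood at 2.05 FPKM in the control, against 5.95 FPKM with HKR3 and 3.08 FPKM in the library labelled siTERT. The difference with HKR3 was 1.19, and the counting interval of the ratio was 1.97 to 4.29, on an estimated 37 fragments in the control. Against the library labelled siTERT it was 0.77, less than 2-fold, so the 2-fold call of LPIN1 rests on the control library. LPIN2, the related enzyme abundant in liver, measured 24.9, 28.4 and 29.7 FPKM in the order control, HKR3 and siTERT.

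Because PLIN2, ACSL1 and LPIN1 were the genes past 2-fold, the promoters that RefSeq lists for them (build GRCh38.p14, from 250 bases before to 50 after the annotated start) are shown, with the window farthest upstream where several starts are listed. ACSL1 has 5 listed windows and LPIN1 has 3, and the expression table does not say which start was used. Capitals mark matches on either strand to 6 motifs: CCAAT (bound by NF-Y), TCACNCCAC (a sterol regulatory element, bound by SREBP), CACGTG (the E-box), GGGCGG (the GC box), TGANTCA (which holds the AP-1 site) and the PPAR DR1 element, a repeat of AGGTCA with any base between the copies. The windows are PLIN2 at chr9:19127443-19127742 (minus strand), ACSL1 at chr4:184825919-184826218 (minus strand) and LPIN1 at chr2:11677294-11677593 (plus strand).
PLIN2: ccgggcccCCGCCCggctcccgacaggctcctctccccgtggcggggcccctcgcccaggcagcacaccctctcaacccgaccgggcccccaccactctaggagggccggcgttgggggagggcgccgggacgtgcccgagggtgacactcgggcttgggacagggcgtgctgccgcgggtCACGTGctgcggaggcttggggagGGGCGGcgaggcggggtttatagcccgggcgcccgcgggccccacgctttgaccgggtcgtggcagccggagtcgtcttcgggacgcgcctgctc
ACSL1: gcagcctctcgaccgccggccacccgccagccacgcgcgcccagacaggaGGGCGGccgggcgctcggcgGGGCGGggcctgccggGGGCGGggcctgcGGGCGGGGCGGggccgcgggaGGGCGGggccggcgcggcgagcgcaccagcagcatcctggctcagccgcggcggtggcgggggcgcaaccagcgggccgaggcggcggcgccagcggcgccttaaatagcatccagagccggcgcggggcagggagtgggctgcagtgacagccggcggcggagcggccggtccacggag
LPIN1: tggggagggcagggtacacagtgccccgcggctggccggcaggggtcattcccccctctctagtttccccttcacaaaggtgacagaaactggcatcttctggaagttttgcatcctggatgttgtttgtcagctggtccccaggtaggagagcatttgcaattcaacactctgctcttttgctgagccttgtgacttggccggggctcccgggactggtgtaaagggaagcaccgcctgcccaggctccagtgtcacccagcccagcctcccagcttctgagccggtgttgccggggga

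The PLIN2 window held an E-box 69 bases before the start and GC boxes at 242 and 45 bases before it. The ACSL1 window held 6 GC boxes between 200 and 130 bases before the start, of which those at 151 and 146 share a base, and a GC content of 82.3%. The LPIN1 window held 0 of the 6 motifs. Among 27305 RefSeq windows of the same length, 7.41% held the E-box, 44.5% the GC box, 35.7% CCAAT, 7.72% TGANTCA, 1.13% TCACNCCAC and 0.022% the PPAR DR1 element. RefSeq windows were found for 36 of the 42 genes, and not for ETFDH, FASN, DGAT1, EHHADH, PNPLA3 and DGAT2. Of these 36 windows, 27 held a GC box, 11 held CCAAT, 3 held the E-box (PLIN2, ELOVL5 and LPIN2), 2 held TGANTCA (ELOVL5 and ME1), 1 held TCACNCCAC (PNPLA2) and 0 held the PPAR DR1 element. A match describes these letters only.

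The remaining enzymes of glycerolipid synthesis did not follow LPIN1. DGAT1, which adds the last acyl chain of triglyceride, stood at 105 FPKM in the control, against 55.5 FPKM with HKR3 and 94.9 FPKM in the library labelled siTERT. Its difference of -0.91 with HKR3 was the lowest of the set, at 52.6% of the control level and a ratio of 0.484 to 0.571 by counting error. After scaling to the same sum it was -0.76, and DGAT1 was the 1 gene of the set still at least 1.5-fold lower.

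DGAT2, the other enzyme of that step, measured 19.8, 13.7 and 21.7 FPKM in the order control, HKR3 and siTERT. GPAM, the mitochondrial acyltransferase that starts the pathway, measured 27.8, 18.1 and 26.2 FPKM, and AGPAT2, which adds the next acyl chain, 94.1, 78.3 and 118 FPKM. HKR3 was the lowest library for DGAT1, DGAT2, GPAM and AGPAT2 alike. The 6 genes of the list had a median difference of -0.38 with HKR3, or -0.23 after scaling to the same sum.

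**Figure D2:**
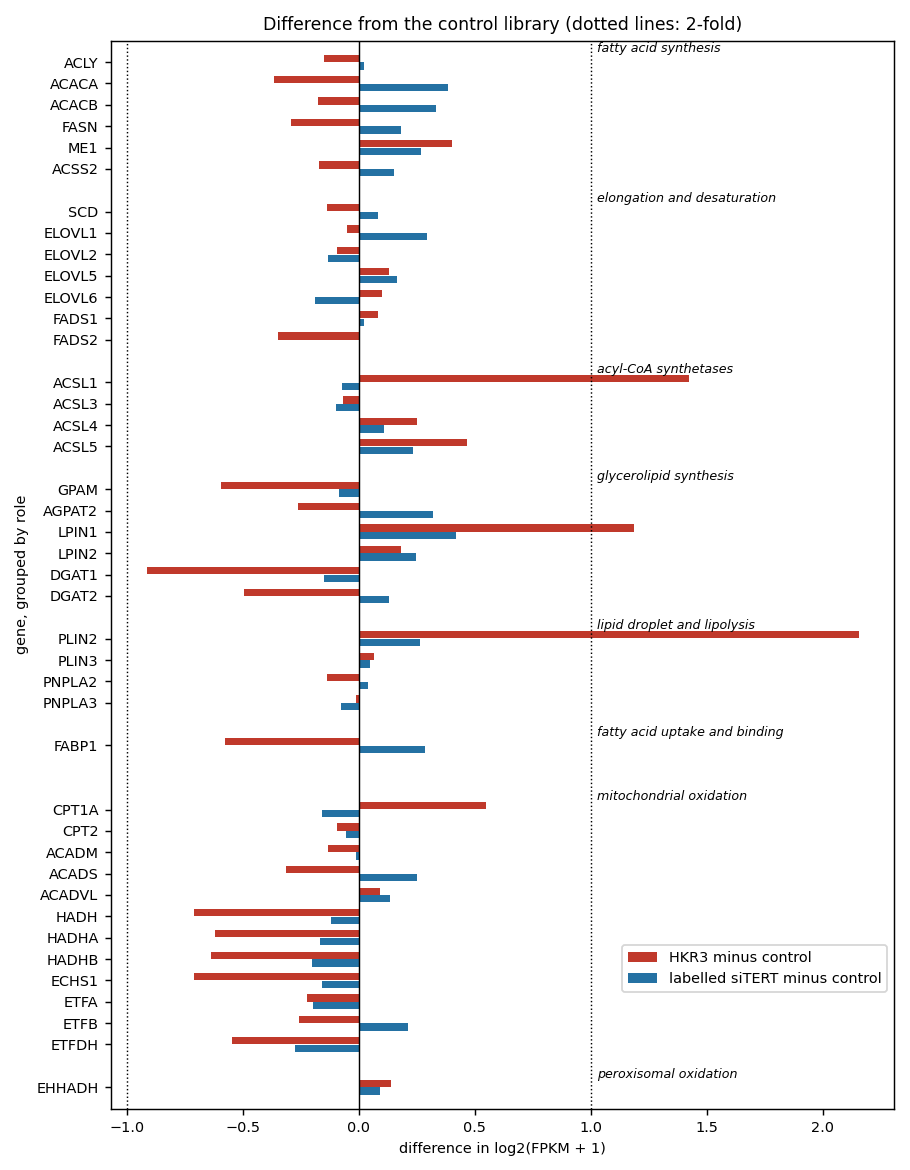
Difference in log2(FPKM + 1) from the control for the 41 measured genes (bars), with HKR3 in red, the library labelled siTERT in blue, and dotted lines at 2-fold. Only the HKR3 bars of PLIN2, ACSL1 and LPIN1 pass a dotted line, and the longest blue bar is that of LPIN1 at 0.42.

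Among the enzymes that make palmitate, 5 of 6 were below the control with HKR3, against 51.4% of all genes. After scaling to the same sum 4 of 6 were below it, against 41.1%. At least 1.5-fold lower or higher were 0 of 6, against 12.7% and 15.3%. FASN, fatty acid synthase, stood at 116 FPKM in the control, against 94.2 FPKM with HKR3 and 131 FPKM in the library labelled siTERT. ACACA, the cytosolic acetyl-CoA carboxylase that makes malonyl-CoA, measured 15.8, 12.05 and 20.95 FPKM in that order. ACLY, which releases acetyl-CoA from citrate, measured 113, 102 and 115 FPKM.

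FASN, ACACA and ACLY had the same order of libraries, with HKR3 lowest and siTERT highest. Their differences with HKR3 were -0.29, -0.37 and -0.15, and after scaling to the same sum -0.14, -0.22 and 0.0043, so that the sign of ACLY turned. ACACB, the carboxylase at the mitochondrial surface whose malonyl-CoA inhibits carnitine transfer, was the weakest enzyme of the list at 1.33, 1.06 and 1.94 FPKM. ACSS2, which makes acetyl-CoA from acetate, measured 13.2, 11.6 and 14.8 FPKM. ME1, malic enzyme, a source of NADPH, was the exception at 36.4, 48.3 and 43.97 FPKM, above the control in both treated libraries with differences of 0.40 and 0.27.

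Elongases and desaturases lay closer to the control. SCD, the delta-9 desaturase that makes oleate, was the highest of the 13 genes of synthesis in every library, at 655, 594 and 694 FPKM in the order control, HKR3 and siTERT. FADS2, the delta-6 desaturase, measured 254, 199 and 254 FPKM, and its difference of -0.35 with HKR3 was the largest of this list. FADS1, the delta-5 desaturase that acts after it, measured 73.6, 77.96 and 74.8 FPKM.

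FADS2 was thus below the control with HKR3 while FADS1 was above it by 0.082, and both kept these signs after scaling to the same sum. ELOVL1 measured 60.6, 58.5 and 74.5 FPKM in the order control, HKR3 and siTERT, and ELOVL5, which lengthens polyunsaturated chains, 49.7, 54.4 and 55.9 FPKM. ELOVL2, which lengthens longer polyunsaturated chains, measured 20.4, 19.03 and 18.5 FPKM, and ELOVL6, which lengthens palmitate, 18.6, 20.02 and 16.2 FPKM. The elongases lay between -0.093 and 0.13 of the control with HKR3, and the 7 genes of the list had a median of -0.050, which turned to 0.10 after scaling to the same sum.

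Of the proteins that take up or bind fatty acids, FABP1, the liver fatty acid-binding protein, was the highest gene of the set in the control at 730.2 FPKM, against 489 FPKM with HKR3 and 889 FPKM in the library labelled siTERT. Its differences were -0.58 and 0.28, and -0.86 between the treated libraries. With HKR3 the highest gene of the set was SCD and not FABP1. CD36 was the lowest, at 0.0754, 0.0473 and 0.0458 FPKM in the order control, HKR3 and siTERT, an estimated 1 fragment in each of them, so no difference was detectable at this depth.

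Carnitine transfer and the acyl-CoA dehydrogenases open mitochondrial oxidation. CPT1A, the carnitine acyltransferase of the outer membrane that limits the rate, stood at 3.36 FPKM in the control, against 5.38 FPKM with HKR3 and 2.8997 FPKM in the library labelled siTERT. Its difference of 0.55 with HKR3 was the highest of the oxidation genes, with a counting interval of the ratio of 1.21 to 2.12. CPT2, the inner membrane enzyme, measured 17.7, 16.5 and 16.96 FPKM in that order.

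CPT1A was the lowest of the 12 mitochondrial genes by level in the control and the farthest above the control with HKR3. The dehydrogenases differed less from it. ACADVL, for very long chains, measured 103, 110.2 and 114 FPKM in the order control, HKR3 and siTERT, ACADM, for medium chains, 31.1, 28.3 and 30.9 FPKM, and ACADS, for short chains, 13.5, 10.6 and 16.2 FPKM.

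The steps after the first dehydrogenation were lower with HKR3. ECHS1, the short-chain enoyl-CoA hydratase, stood at 206 FPKM in the control, against 125 FPKM with HKR3 and 184 FPKM in the library labelled siTERT. HADH, the short-chain hydroxyacyl-CoA dehydrogenase, measured 30.7, 18.4 and 28.1 FPKM in that order. HADHA and HADHB, the subunits of the trifunctional protein that handles long chains, measured 76.2, 49.3 and 67.8 FPKM and 74.5, 47.6 and 64.7 FPKM.

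ECHS1, HADH, HADHA and HADHB held between 59.9% and 64.7% of their control level with HKR3. With GPAM and DGAT1 they are the 6 genes at least 1.5-fold lower on the log2(FPKM + 1) scale. The differences of ECHS1, HADH, HADHA and HADHB were -0.71, -0.71, -0.62 and -0.64. After scaling to the same sum they were -0.56, -0.56, -0.47 and -0.48, all short of 1.5-fold. The ratios of the library labelled siTERT to the control were between 0.868 and 0.917 for these genes.

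HADHA and HADHB had like levels and like differences, so their shared upstream region is shown, a choice made after the values were seen. RefSeq places their starts 307 bases apart on opposite strands of chromosome 2, and their promoter windows overlap by 194 bases. FADS1 and FADS2 also have neighbouring starts on opposite strands, of chromosome 11, with a window overlap of 0 bases. Their differences with HKR3 were unlike, at 0.082 and -0.35. Whether a shared region plays a part was not tested. The HADHB window is chr2:26244689-26244988 (GRCh38.p14, plus strand), with capitals as above.
HADHB: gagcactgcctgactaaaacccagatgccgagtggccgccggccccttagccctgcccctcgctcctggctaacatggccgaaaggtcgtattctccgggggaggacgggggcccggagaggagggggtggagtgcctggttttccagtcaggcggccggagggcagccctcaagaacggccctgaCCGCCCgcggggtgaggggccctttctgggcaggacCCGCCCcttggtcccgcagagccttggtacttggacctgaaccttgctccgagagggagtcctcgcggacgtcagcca

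This window held GC boxes at 64 and 28 bases before the HADHB start, at a GC content of 68%. Electron transfer flavoprotein passes electrons from the acyl-CoA dehydrogenases to the respiratory chain. Its subunits ETFA and ETFB measured 114, 97.5 and 99.3 FPKM and 143, 119.9 and 166 FPKM in the order control, HKR3 and siTERT. Its dehydrogenase ETFDH measured 7.92, 5.11 and 6.38 FPKM, a difference of -0.55 with HKR3 and of -0.27, the lowest of the set, in the library labelled siTERT. ETFA and ETFDH were below the control in both treated libraries, while ETFB was below it with HKR3 and above it in the other.

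EHHADH, the bifunctional enzyme of peroxisomal oxidation, measured 13.8, 15.3 and 14.8 FPKM in the order control, HKR3 and siTERT. It lay above the control in both treated libraries, by 0.14 and 0.093. Being the only peroxisomal gene of the set, it is set beside 19 other measured peroxisomal genes further on.

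Synthesis was then compared with oxidation, taking the 13 genes of palmitate synthesis, elongation and desaturation against the 13 of mitochondrial and peroxisomal oxidation. With HKR3 the median difference was -0.14 for synthesis and -0.26 for oxidation, beside -0.021 for all genes, a gap of 0.12 between the groups. Below the control were 9 of 13 synthesis genes and 10 of 13 oxidation genes, against 51.4% of all genes, and at least 1.5-fold lower were 0 and 4, against 12.7%. The synthesis median turned to 0.016 after scaling to the same sum, where the oxidation median was -0.10, so the direction of synthesis depends on the scaling. Below the control were then 4 of the 6 genes that make palmitate and 1 of the 7 of elongation and desaturation. Of the oxidation genes it was 8 of 13, against 41.1% of all genes. Oxidation genes spread from -0.71 to 0.55 and synthesis genes from -0.37 to 0.40, and 5 oxidation genes lay below the lowest synthesis gene.

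Highly expressed genes as a whole were lower with HKR3. When all genes were cut into 10 equal groups by mean FPKM, the highest group, from 84.9 FPKM upward, had a median difference of -0.26, and the lowest group 0.038. Of the synthesis and of the oxidation genes, 4 each were in that highest group. With the median of each gene's own group subtracted, the synthesis median was 0.078 and the oxidation median -0.12. HADH, ETFDH, HADHB, HADHA and ECHS1 then lay between -0.71 and -0.45, and PLIN2, ACSL1 and LPIN1 at 2.42, 1.40 and 1.08.

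**Figure D3:**
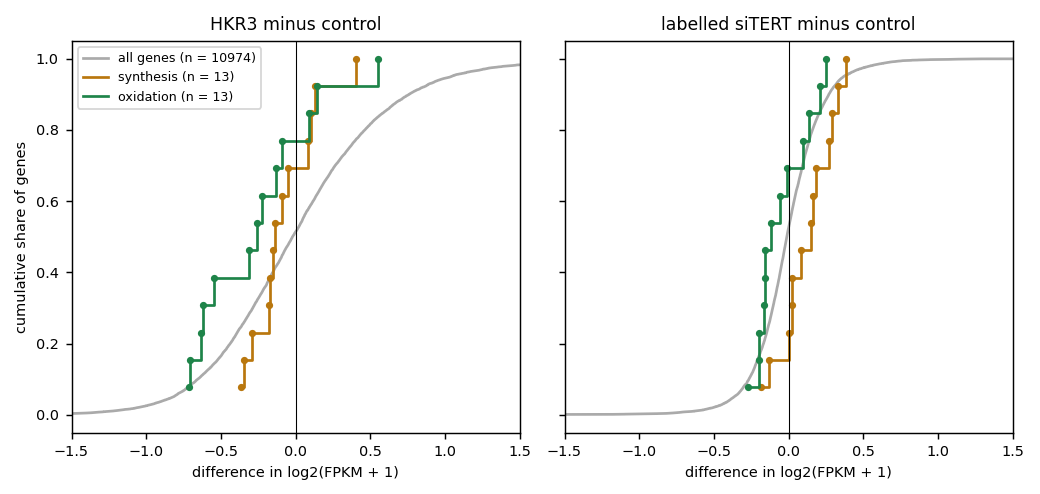
Cumulative share of genes (vertical axis) against the difference in log2(FPKM + 1) from the control, for all 10974 genes (grey), the 13 synthesis genes (orange) and the 13 oxidation genes (green), with HKR3 on the left and the library labelled siTERT on the right. Genes beyond 1.5 in either direction are not drawn. Synthesis and oxidation have medians of -0.14 and -0.26 on the left and of 0.15 and -0.12 on the right.

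In summed levels, the 13 synthesis genes held 1427, 1293 and 1516 FPKM in the order control, HKR3 and siTERT, and the 13 oxidation genes 835, 649 and 812 FPKM. The ratio of these sums was 1.71, 1.99 and 1.87, above the control in both treated libraries. SCD is the largest term of the synthesis sum and ECHS1 the largest of the oxidation sum, so both weigh more there than in a median. The ratio of FASN to CPT1A was 34.4, 17.5 and 45.3 in the same order. It was below the control with HKR3, where CPT1A was higher and FASN lower, and so went the other way from the ratio of the sums.

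In the library labelled siTERT, 0 of the 41 genes passed 2-fold upward and 0 passed it downward, against 0.282% and 0.200% of all genes. At least 1.5-fold higher or lower were again 0 genes, against 1.69% and 1.24%. Below the control were 16 of 41 genes, against 52.6% of all genes. The highest differences were those of LPIN1 at 0.42, ACACA at 0.38 and ACACB at 0.33, and the lowest those of ETFDH at -0.27, HADHB at -0.20 and ETFA at -0.20.

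All 6 enzymes of palmitate synthesis were above the control in the library labelled siTERT, where 52.6% of all genes were below it. Their median was 0.22, with a range from 0.024 for ACLY to 0.38 for ACACA. Of the 12 mitochondrial oxidation genes 9 were below it, with a median of -0.14, or 8 after scaling to the same sum. Among all genes these shares were 52.6% and 44.2%. Over both groups of 13, the medians were 0.15 for synthesis and -0.12 for oxidation, a gap of 0.27, beside -0.012 for all genes. Synthesis genes outside the set did not share this direction. Other genes of synthesis and NADPH supply had a median of -0.043 in this library, with 6 of 10 below the control. Other genes of elongation and desaturation had a median of -0.031, with 8 of 11 below. After scaling to the same sum 5 of each list were below it. The counting interval of the ratio was 1.13 to 1.56 for ACACA and 0.631 to 1.02 for ETFDH. These rest on an estimated 262 and 154 fragments in the control, taking short transcripts of 1626 and 1903 bases.

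Both comparisons share the control library, so a control value that is low or high by itself moves both differences of that gene together. Between the treated libraries, PLIN2 and ACSL1 were at least 2-fold higher with HKR3, and FABP1, DGAT1 and ACACA had the lowest differences, at -0.86, -0.76 and -0.75.

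Regulators of these pathways went in both directions with HKR3. Of 23 measured, 2 passed 2-fold upward, near the 5.52% of all genes, and 0 downward, against 2.52%. Their median was 0.083, or 0.24 after scaling to the same sum. SREBF1, which encodes the SREBP-1 proteins that drive synthesis, measured 55.2, 38.2 and 55.99 FPKM in the order control, HKR3 and siTERT. INSIG1, which holds SREBP precursors in the endoplasmic reticulum, measured 33.8, 82.4 and 39.6 FPKM, and MLXIPL, which encodes the glucose-responsive activator ChREBP, 3.06, 4.22 and 2.96 FPKM.

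SREBF1 and INSIG1 differed from the control in opposite directions with HKR3, by -0.52 and 1.26. The nuclear receptors were likewise split. PPARG, the receptor that drives droplet genes in fat cells, measured 21.2, 42.6 and 25.9 FPKM in the order control, HKR3 and siTERT, and PPARA, the receptor for oxidation genes in liver, 5.57, 2.45 and 5.53 FPKM. RXRA, their common partner, measured 22.3, 13.01 and 17.9 FPKM, and NR1H3, the liver X receptor alpha, 28.4, 17.3 and 23.4 FPKM.

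PPARG was thus above the control with HKR3 by 0.97, and PPARA, RXRA and NR1H3 differed from it by -0.93, -0.74 and -0.68. After scaling to the same sum, an alternative added after seeing the data, PPARG was past 2-fold at 1.13, PPARA and RXRA were at -0.82 and -0.59, and NR1H3 fell short of 1.5-fold at -0.54. The deacetylase gene SIRT1 measured 4.79, 11.5 and 3.96 FPKM in the order control, HKR3 and siTERT, and PRKAA1, a catalytic subunit of AMP-activated kinase, 44.96, 70.2 and 46.4 FPKM. The coactivator PPARGC1A was barely detected, at 0.0222, 0.0202 and 0 FPKM. In the library labelled siTERT 0 regulators passed 1.5-fold, against 1.69% of all genes upward and 1.24% downward.

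A list of PPAR target genes holds 19 genes, of which 9 are also in the set described here and 14 were measured. With HKR3, 3 of the 14 passed 2-fold upward, against 5.52% of all genes, and 0 downward, against 2.52%. The 14 had a median of 0.12 and 6 below the control, or 0.27 and 3 below after scaling to the same sum. Of all genes 51.4% and 41.1% were below the control in these settings. PLIN2 and ACSL1 were among the 3 and were already counted above as genes of the set, so this count is not independent of that one. The only gene past 2-fold from outside the set was TXNIP, a regulator of thioredoxin and glucose uptake. It measured 14.97, 71.1 and 11.7 FPKM in the order control, HKR3 and siTERT. CREB3L3, a liver transcription factor of lipid metabolism, measured 41.3, 79.8 and 54.6 FPKM, while FABP1, on the same list, was below the control.

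**Figure D4:**
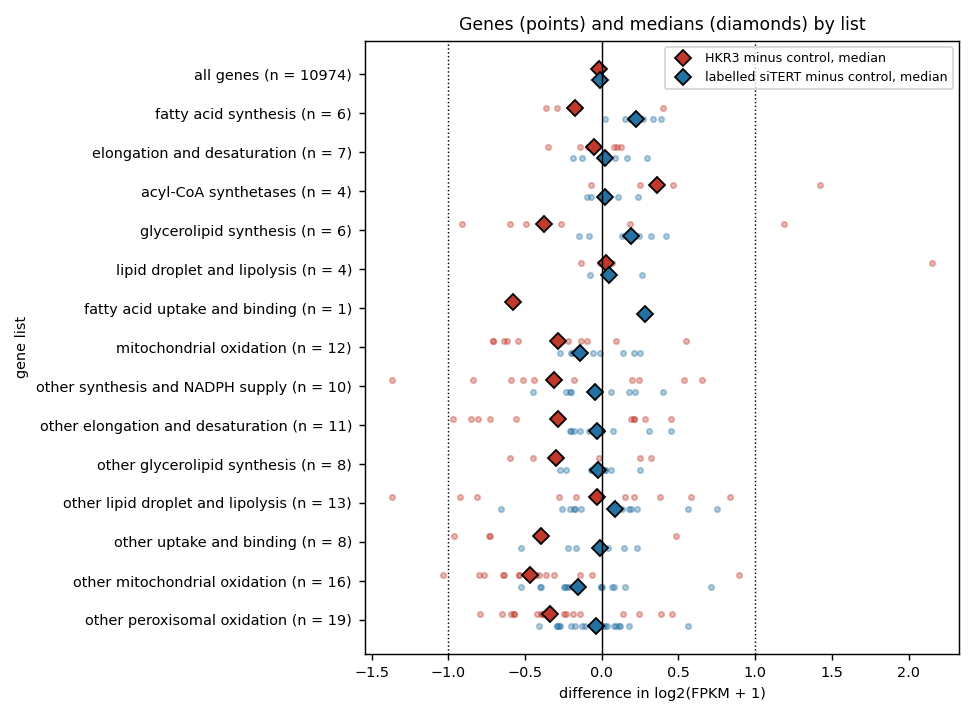
Difference in log2(FPKM + 1) from the control of each measured gene (points) and the median (diamonds), for role lists of the set and 7 lists of other genes of the same pathways, with HKR3 in red, the library labelled siTERT in blue and dotted lines at 2-fold. The red medians of other mitochondrial and other peroxisomal oxidation lie at -0.47 and -0.33, and the points past the right dotted line are PLIN2, ACSL1 and LPIN1.

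Genes of the same pathways outside the set were read in the same way. Of 16 other measured genes of mitochondrial oxidation, 15 were below the control with HKR3, 5 of them at least 1.5-fold and 1 at least 2-fold, against 51.4%, 12.7% and 2.52% of all genes. Their median was -0.47, or -0.32 with 13 below after scaling to the same sum, where 41.1% of all genes were below. ACOT13, a thioesterase, measured 18.01, 8.27 and 16.3 FPKM in the order control, HKR3 and siTERT. DECR1, the reductase for unsaturated chains, measured 41.9, 23.6 and 43.9 FPKM, and ACAD8, which acts in valine breakdown, 6.68, 3.51 and 7.53 FPKM.

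The 1 gene of this list above the control with HKR3 was CPT1B, the muscle form of the carnitine acyltransferase, at 4.31, 8.86 and 7.72 FPKM. CPT1B overlaps a read-through transcript with CHKB, so its share of the fragments is uncertain. Like CPT1A it was above the control with HKR3, by 0.89. In the library labelled siTERT the list had a median of -0.15 with 11 of 16 below the control, against 52.6% of all genes.

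Of 19 other measured peroxisomal genes, 15 were below the control with HKR3, against 51.4% of all genes. At least 1.5-fold lower were 3 of the 19, near the 12.7% of all genes, and at least 2-fold lower 0, against 2.52%. Their median was -0.33, or -0.23 with 14 below after scaling to the same sum, against 41.1% of all genes. PECR, an enoyl-CoA reductase, measured 31.03, 17.5 and 25.2 FPKM in the order control, HKR3 and siTERT. ACOX2, the oxidase for branched chains and bile acid precursors, measured 8.87, 5.29 and 8.91 FPKM, and HSD17B4, the D-bifunctional protein, 56.4, 37.01 and 46.3 FPKM.

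SCP2, whose product includes a peroxisomal thiolase, had the next largest difference, at 166, 112 and 170.2 FPKM. EHHADH of the set therefore differed from most peroxisomal genes, and AMACR, PEX5 and HACL1 were among the few also above the control with HKR3. In the library labelled siTERT the median was -0.040, which scaling to the same sum turned to 0.00017.

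On the synthetic side, 10 other measured genes of synthesis and NADPH supply had a median of -0.31 with HKR3, or -0.16 after scaling to the same sum. In both cases 6 of the 10 were below the control, near the 51.4% of all genes before scaling and against 41.1% after it. SLC25A10, the mitochondrial dicarboxylate carrier, measured 59.6, 22.5 and 43.5 FPKM in the order control, HKR3 and siTERT. It was the 1 gene of the 10 at least 2-fold lower, against 2.52% of all genes. IDH1, a cytosolic source of NADPH, measured 924, 516 and 885 FPKM, and OXSM, of mitochondrial fatty acid synthesis, 22.9, 14.8 and 19.7 FPKM. PGD, of the pentose phosphate pathway, was higher with HKR3 at 155, 244 and 161 FPKM. PGD and ME1, both sources of NADPH, were thus above the control with HKR3 and IDH1 below it.

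The 11 other measured genes of elongation and desaturation had a median of -0.29 with HKR3. It was -0.13 after scaling to the same sum and -0.026 with the median of each gene's expression group subtracted. Below the control were 6 of the 11, near the 51.4% of all genes, and 6 also after scaling to the same sum, against 41.1%. The other 5 were above it before scaling, with the highest difference for ELOVL7 at 0.45. At least 1.5-fold lower were 4 of the 11, against 12.7% of all genes, and at least 2-fold lower 0, against 2.52%. TECR, the reductase that ends each elongation round, measured 344, 196 and 311 FPKM in the order control, HKR3 and siTERT. SCD5, the other delta-9 desaturase, measured 5.05, 2.09 and 4.33 FPKM, and ELOVL3 1.64, 0.4598 and 1.29 FPKM. CYB5A, the cytochrome that feeds electrons to desaturases, measured 94.9, 56.96 and 82.3 FPKM, and HKR3 was the lowest library for TECR, SCD5, ELOVL3 and CYB5A alike.

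Other droplet genes differed in direction with HKR3, and the median of -0.029 over 13 measured genes turned to 0.094 after scaling to the same sum. G0S2, an inhibitor of PNPLA2, measured 8.65, 2.75 and 5.13 FPKM in the order control, HKR3 and siTERT. It was the 1 gene of the 13 at least 2-fold lower, against 2.52% of all genes. HILPDA, another inhibitor of that lipase, measured 14.1, 6.95 and 12.3 FPKM, and LIPA, the lysosomal lipase, 17.6, 9.61 and 14.5 FPKM. CIDEC, which fuses droplets, measured 17.5, 32.1 and 30.04 FPKM.

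Both lipase inhibitors were thus below the control with HKR3, where PLIN2 and CIDEC were above it, and CIDEC was above it in both treated libraries. ABHD5, on the same list, was also above the control in both, at 8.90, 13.8 and 10.2 FPKM in the order control, HKR3 and siTERT. PLIN1, PLIN4 and PLIN5, other droplet coat genes, did not reach a mean of 1 FPKM. CIDEC is also an adipocyte marker, and the adipocyte markers ADIPOQ, LEP and FABP4 were listed at 0 in all libraries.

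Other genes of fatty acid uptake and binding were mostly lower, with 7 of 8 measured genes below the control with HKR3, against 51.4% of all genes, and 7 also after scaling to the same sum, against 41.1%, and a median of -0.40. SLC27A2, an importer and activator of very long chains, measured 13.7, 6.55 and 12.1 FPKM in the order control, HKR3 and siTERT. SLC27A5, the bile acyl-CoA synthetase of liver, measured 4.91, 2.57 and 3.104 FPKM, and DBI, the acyl-CoA-binding protein, 743, 445 and 733 FPKM. The 1 gene above the control was ACBD3, which has an acyl-CoA-binding domain, at 17.1, 24.3 and 17.6 FPKM.

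Other glycerolipid genes had a median of -0.30 over 8 measured genes with HKR3, or -0.15 after scaling to the same sum. Below the control were 6 of the 8, or 5 after that scaling, against 51.4% and 41.1% of all genes. LPIN3 measured 1.98, 0.967 and 1.85 FPKM in the order control, HKR3 and siTERT, so that it lay on the other side of the control from LPIN1. MOGAT3, a monoacylglycerol acyltransferase, measured 6.87, 4.77 and 5.53 FPKM, GPAT3, of the first step at the endoplasmic reticulum, 16.9, 21.3 and 20.3 FPKM, and AGPAT1, of the second step, 48.4, 38.7 and 49.2 FPKM.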

How the data were processed

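RNA of 3 Hep3B libraries, 1 in each group, was sequenced after preparation with a stranded kit for messenger RNA, per the labels' protocols. The authors deposited 1 value per gene and library, read here as FPKM from the tools named and the values, since the header does not name the unit. STAR 2.5.0, Cufflinks, Cuffdiff 2.2.1 and hg19 are named in the submitters' processing notes. Settings, strand use, filters and any scaling between libraries were not given in the sources used here. Because FPKM divides out length and library size, a gene that takes many fragments lowers the others.

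Of 19869 entries, 19119 matched a symbol. The 10 entries sharing a symbol were summed and 4 short noncoding RNAs left out. Differences used a pseudocount of 1 FPKM, in Python 3.11.15 with pandas 2.3.3. The calculation was tested on simulated data. Library sizes were estimated from low genes with 1 transcript of at least 1000 bases (GENCODE v29), as the size within a preset range that put the largest number of them within 15% of a single fragment. This held for 56 of 183, 47 of 202 and 56 of 214 such genes in the control, HKR3 and siTERT libraries, so the sizes are rough. Intervals are exact binomial limits at 95%, on the shortest coding transcript of at least 1000 bases. Where longer transcripts were present, the fragment estimates are too low and the intervals too wide. Named genes were members past 2-fold, the 3 largest differences of each role, up to 4 genes of each other list, and regulators past 1.5-fold. The remaining members, which were all accounted for, PDK4 and genes named as above the control, at 0 or not measured fall outside this rule, and were named after their values were seen. Members, lists and rules were chosen with earlier results of these data known. Alternatives were other pseudocounts, filters, scalings, subtraction of the median of 10 expression groups, and the library labelled siTERT as reference. Results for some genes of the wider pathway lists are not reported here.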

Additional observations from a re-analysis of the deposited data

How the results depend on the processing

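No paired analysis was possible because each group held 1 library. The counts of members past 2-fold were 3 or 2 higher and 0 lower with HKR3, and 0 for the library labelled siTERT, under every alternative run. LPIN1 fell short of 2-fold with a pseudocount of 5 (0.63) and against the library labelled siTERT (0.77). Scaled to the same sum, the synthesis median with HKR3 reversed to 0.016, the oxidation median was -0.10 and the count at least 1.5-fold lower was 1. With the median of 10 groups by expression subtracted, the synthesis median reversed to 0.078 and the oxidation median was -0.12. The cause was not tested. The gap between these medians kept its sign, from 0.049 to 0.19 with HKR3 and from 0.20 to 0.29 for the library labelled siTERT. The alternatives for this gap, for oxidation genes below the control and for the 1.5-fold count were added after seeing the data. A median was said to move when it shifted by over 0.1. Of all genes, 606 were higher and 277 lower past 2-fold with HKR3. The numbers were 874 and 488 at a pseudocount of 0.1, 238 and 93 at 5, 860 and 167 scaled to the same sum, and 451 and 151 against the library labelled siTERT. For that library itself, 31 and 22 became 103 and 57 at a pseudocount of 0.1, 10 and 3 at 5, 34 and 37 without a filter, and 17 and 5 at a mean of at least 5 FPKM. The fragment estimates rest on few genes. With the transcript lengths used, counting error is widest for CD36 and LPIN1.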

Other observations

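Several genes of lipid handling were listed at 0 in all 3 libraries, among them LPL, lipoprotein lipase, LIPE, hormone-sensitive lipase, ACSS1, the mitochondrial acetyl-CoA synthetase, and THRSP, a regulator of lipogenesis. PDK4, which turns cells from glucose to fatty acid use, measured 0.109, 1.603 and 0.0926 FPKM in the order control, HKR3 and siTERT. Its mean did not reach 1 FPKM, so it is in no count, and it was picked for mention after its values were seen.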
